A study of Mus musculus with 16 samples.

Results

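Genes were sorted here by how they behaved in 2 media changes applied to mouse intestinal tumour organoids, the addition of TGF-β in one pair of lines and the withdrawal of EGF in another. All 16 libraries of the study entered 1 fit, and of 15087 genes tested 347 moved in opposite directions and 752 moved in 1 change alone, in every line of that change. The organoids (MTOs) are 3-dimensional epithelial cultures in basement membrane extract. MTO54 and MTO220 have the genotype AKP, labelled wild type for Tgfbr2, and MTO100 and MTO101 the genotype APT. By the field's usual reading, which the labels do not spell out, APT stands for lesions in Apc, Trp53 and Tgfbr2, and AKP shares those in Apc and Trp53. All full-medium cultures received EGF at 50 ng/ml, the BMP antagonist noggin at 100 ng/ml and galunisertib, an inhibitor of the TGF-β type I receptor kinase, at 1 µM, and were collected at day 4. AKP cultures in TGF-β medium kept EGF and noggin, lost galunisertib, received TGF-β1 (labelled 5 ng/µl) and were collected at day 7. APT cultures without EGF kept noggin and galunisertib and were also collected at day 7. Each line and medium had 2 libraries, from consecutive passages sequenced in pools 1 and 2.

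TGF-β signals through paired receptor kinases to SMAD transcription factors; in gut epithelium it is known to slow growth, to induce matrix and its own feedback inhibitors, and to favour mesenchymal traits. EGF signals through its receptor and the ERK cascade, whose targets include ETS-family factors, cyclin D1 and the DUSP, SPRY and SPRED feedback inhibitors. Loss of the type II receptor blocks the TGF-β signal, and TGF-β was added only to the lines labelled wild type for Tgfbr2.

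The AKP and APT lines never shared a changed medium. A difference between the responses therefore joins the medium, the genotype and the lines, which cannot be told apart, whereas the 3 additional days of culture are common to both responses. Within each response the changed medium comes with these 3 days, and medium and days cannot be told apart. Library depth was 17056053 to 22251986 reads on genes, and values are given as normalised reads (reads divided by the authors' size factors). The 8 epithelial markers summed to between 100455 and 234262 normalised reads in every library. Markers of other cell types gave smaller sums. Fibroblast markers summed to 15.3 to 523.9 over 10 genes, with Lum at 0 in all 4 groups and Pdgfra at up to 498.1. Immune markers summed to 36.1 to 673.3 over 10 genes, with Cd3d at 0 in 3 groups and at most 1.06 without EGF and Lyz2 at up to 561.8. Endothelial markers summed to 49.4 to 1947 over 9 genes, with Emcn at 0 in all groups, Cdh5 at up to 1247 and Vwf at up to 1212. The 4 libraries labelled MTO220 read 1916 to 4207 for Trp53 and the 12 others 91.2 to 252.0, so a lesion of Trp53 was not visible as low RNA in that line. Tgfbr2 RNA was present in all lines, from 877.2 to 5315, and gene totals do not show whether it carries a lesion. Mitochondrial genes held 1.39% to 1.68% of reads in AKP full medium and 1.91% to 2.41% with TGF-β, and 1.74% to 2.09% in APT full medium and 2.62% to 4.05% without EGF, so their share was higher in both changed media, with no overlap. Labelled RNA concentrations were 13.2, 14.6 and 48.2 ng/µl in 3 of the 4 libraries without EGF and 354 ng/µl in the other, against 87.8 to 2344 ng/µl in the other 12. The part of either measure in the responses was not tested, and counts without the 2 EGF-withdrawal libraries of pool 2, which had the lowest concentrations, are given in the closing section.

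Responses were compared as log2(normalised reads + 1) with limma-trend, with the line as a term, and a gene was called at a Benjamini-Hochberg adjusted p under 0.05. Libraries of 1 line come from passages of the same culture, so the p-values measure mostly the spread between passages. Between full and TGF-β medium 7924 genes changed in the AKP lines (52.5% of those tested), 4152 upwards (27.5%) and 3772 downwards (25.0%). Between full medium and no EGF 7454 genes changed in the APT lines (49.4%), 4079 upwards (27.0%) and 3375 downwards (22.4%). The difference between the responses was called for 3343 genes (22.2%), higher under TGF-β for 1582 (10.5%) and lower for 1761 (11.7%). Scaling to library totals in place of size factors moved the median of all genes from 0.09 to 0.313 for EGF withdrawal and raised the upward share of its calls from 54.7% to 70.3%.

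Most genes called in both responses moved the same way: 2157 rose in both and 2007 fell in both. A further 191 rose with TGF-β and fell without EGF, and 292 did the reverse. Across the 15087 genes the log2 responses of the 2 AKP lines correlated at r = 0.748 and those of the 2 APT lines at r = 0.739. Between an AKP and an APT line r lay between 0.282 and 0.434. These correlations are across genes, which are not independent.

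Requiring each of the 8 matched pairs of line and pool to follow its own direction left 147 opposite genes that rose with TGF-β and fell without EGF (0.974% of those tested). For the reverse pattern 200 genes remained (1.33%). A gene was placed in 1 change alone when it moved at least 2-fold there in all 4 pairs, the difference was called, and the other response was not called, had a 95% interval within 2-fold and stayed within 2-fold in both lines. This gave 257 genes up with TGF-β alone (1.70%), 216 down with TGF-β alone (1.43%), 179 up with EGF withdrawal alone (1.19%) and 100 down with EGF withdrawal alone (0.663%). The 2-fold limit is not a natural gap: 50 further genes with changes of 1.8- to 2-fold met every other condition for TGF-β up alone, against 37 between 2- and 2.2-fold. The values of the class members below are those that chose them, and are a description.

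**Figure D1:**
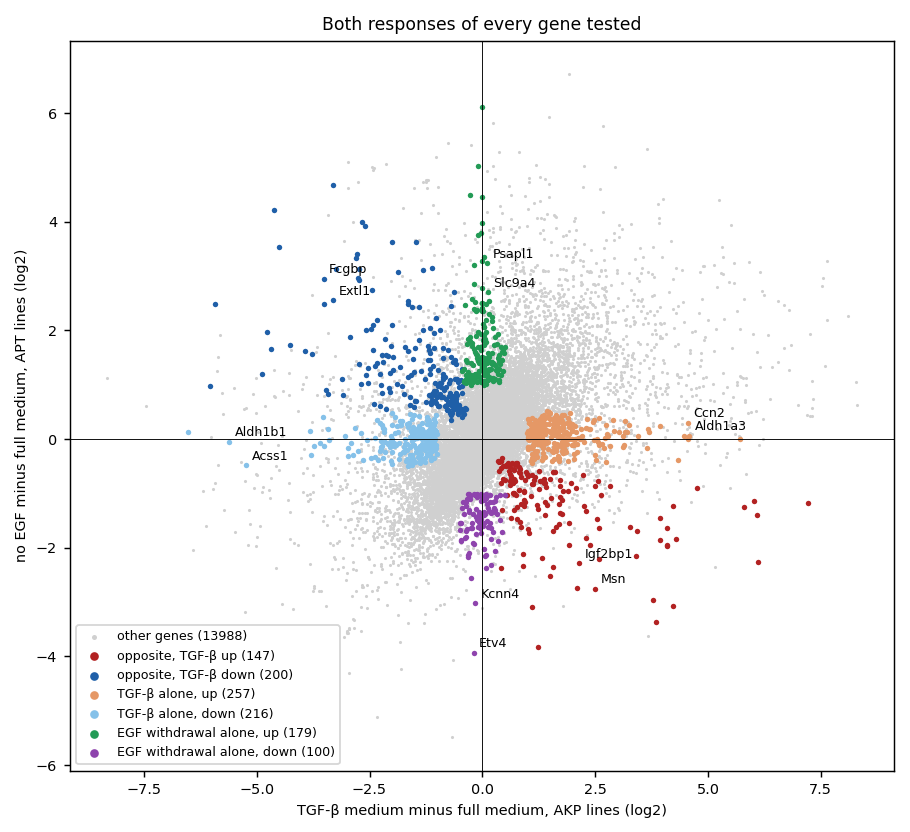
Each point is 1 of 15087 genes, with its log2 change from full medium to TGF-β medium in the AKP lines on the x axis and from full medium to no EGF in the APT lines on the y axis; colours mark the 6 classes and the 2 top-ranked genes of each class are named. The opposite genes fill the upper left (200) and lower right (147), the genes of 1 change alone lie along the axes, and most other genes run from lower left to upper right.

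In full medium the AKP level minus the APT level had a median of 0.06 (log2) among the 147 genes that rose with TGF-β, and 101 of them (68.7%) stood within 2-fold. Among the 200 of the reverse pattern the median was -0.07 and 145 (72.5%) stood within 2-fold. Of all genes tested, 12280 (81.4%) stood within 2-fold in full medium. In the changed media the 2 genotypes were a median of 2.58 apart for the first class and -2.30 for the second. Changes of 2-fold or more in both responses were seen in 53 of the 147 and 83 of the 200.

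The DNA just before the start is shown for the highest-ranked opposite genes, as examples of the windows behind the motif shares given after them. In all windows 6 short motifs were searched on both strands: the SMAD box CAGAC, the AP-1 site TGANTCA, the TEAD site GGAATG, the ETS site CCGGAA, the E2-box CACCTG and the CDX site TTTATGG. Sequences are 250 bases upstream from RefSeq's promoter entries (GRCm38.p6), 5′ to 3′ on the gene's strand, with motif matches in capitals. Igf2bp1, second in its class, was not in the table, and the next gene, Acsbg1, is shown.
Msn (chrX:96095795-96096044, plus strand): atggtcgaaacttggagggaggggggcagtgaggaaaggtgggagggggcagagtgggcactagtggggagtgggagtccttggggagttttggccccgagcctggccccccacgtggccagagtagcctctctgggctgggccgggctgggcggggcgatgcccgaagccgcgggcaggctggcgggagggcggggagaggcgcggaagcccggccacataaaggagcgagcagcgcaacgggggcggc
Acsbg1 (chr9:54661886-54662135, minus strand): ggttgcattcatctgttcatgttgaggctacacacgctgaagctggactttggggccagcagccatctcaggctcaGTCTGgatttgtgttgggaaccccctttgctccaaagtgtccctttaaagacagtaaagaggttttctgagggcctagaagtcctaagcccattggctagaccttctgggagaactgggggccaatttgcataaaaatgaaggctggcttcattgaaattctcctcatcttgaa
Fcgbp (chr7:28070986-28071235, plus strand): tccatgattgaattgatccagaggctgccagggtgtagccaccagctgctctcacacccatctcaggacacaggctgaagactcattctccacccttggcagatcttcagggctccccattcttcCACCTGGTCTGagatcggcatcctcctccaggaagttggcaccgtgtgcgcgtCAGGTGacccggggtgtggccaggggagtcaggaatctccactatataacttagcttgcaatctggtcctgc
Extl1 (chr4:134372548-134372797, minus strand): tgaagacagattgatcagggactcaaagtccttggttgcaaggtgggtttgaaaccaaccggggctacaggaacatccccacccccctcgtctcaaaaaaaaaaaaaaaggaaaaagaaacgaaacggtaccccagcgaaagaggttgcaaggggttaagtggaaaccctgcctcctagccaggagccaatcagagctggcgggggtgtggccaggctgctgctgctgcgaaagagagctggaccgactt
Acsbg1 held 1 SMAD box, Fcgbp 1 SMAD box directly beside 1 of its 2 E2-boxes, and Msn and Extl1 none of the 6 motifs in this window. A promoter was found for 115 of the 147 genes, 141 of the 200 and 11278 of all 15087. The SMAD box was in 41.7% of the first class, 43.3% of the second and 40.6% of all. The E2-box, bound by SNAI and ZEB repressors among others, was in 21.7%, 26.2% and 16.2%. The AP-1 site was in 7.8%, 9.9% and 4.7%, the TEAD site in 16.5%, 8.5% and 10.6%, the ETS site in 14.8%, 15.6% and 21.3%, and the CDX site in 1.7%, 2.1% and 1.5%. These shares are descriptions without a test, and a match is not a bound site.

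Msn ranked first in the class that rose with TGF-β and fell without EGF. It encodes moesin, which ties actin to the plasma membrane (Entrez gene 17698, chromosome X, 96096045 to 96168553, mm10). In MTO54 it read 4477 and 3473 normalised reads in full medium (pools 1 and 2) and 14457 and 12416 with TGF-β. In MTO220 it read 2693 and 2346, then 25026 and 22632. All 4 TGF-β libraries lay above all 4 AKP full-medium libraries. In MTO100 it read 497.2 and 465.8 in full medium and 180.4 and 119.9 without EGF. In MTO101 it read 1242 and 1312, then 84.7 and 97.8. All 4 libraries without EGF lay below all 4 APT full-medium libraries. Its log2 change was 2.50 ± 0.36 (limma's standard error) with TGF-β and -2.75 ± 0.36 without EGF, and the difference of 5.25 ± 0.50 had an adjusted p of 4.74e-06.

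Igf2bp1, an RNA-binding protein of fetal tissues and tumours, rose from 86.2 to 149.9 in AKP full medium to 346.8 to 754.5 with TGF-β, and fell from 149.6 to 225.8 in APT full medium to 21.2 to 66.0 without EGF. Neither pair of groups overlapped, and the log2 changes were 2.14 ± 0.25 and -2.28 ± 0.25. Itga5, the α chain of the fibronectin receptor, read 95.4 and 110.1 in MTO220 in full medium and 3344 and 2760 with TGF-β. In MTO54 it went from 181.3 and 273.9 to 743.2 and 676.7. Without EGF it fell in MTO100 from 32.9 and 68.3 to 17.0 and 20.0 and in MTO101 from 236.2 and 295.8 to 75.1 and 65.5, so the 2 APT groups overlap unless each line is read by itself. Its log2 changes were 3.27 ± 0.47 and -1.61 ± 0.47. Aif1l, an actin-binding protein, changed by 4.30 ± 0.52 and -1.83 ± 0.52. Acsbg1, a long-chain acyl-CoA synthetase, changed by 3.95 ± 0.53 and -1.85 ± 0.53. The membrane protein gene Emp3 changed by 2.59 ± 0.32 and -1.63 ± 0.32, Fgd1, an exchange factor for the small GTPase Cdc42, by 1.63 ± 0.32 and -1.61 ± 0.32, and Rgl1, an exchange factor for Ral GTPases, by 1.57 ± 0.35 and -2.34 ± 0.35.

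**Figure D2:**
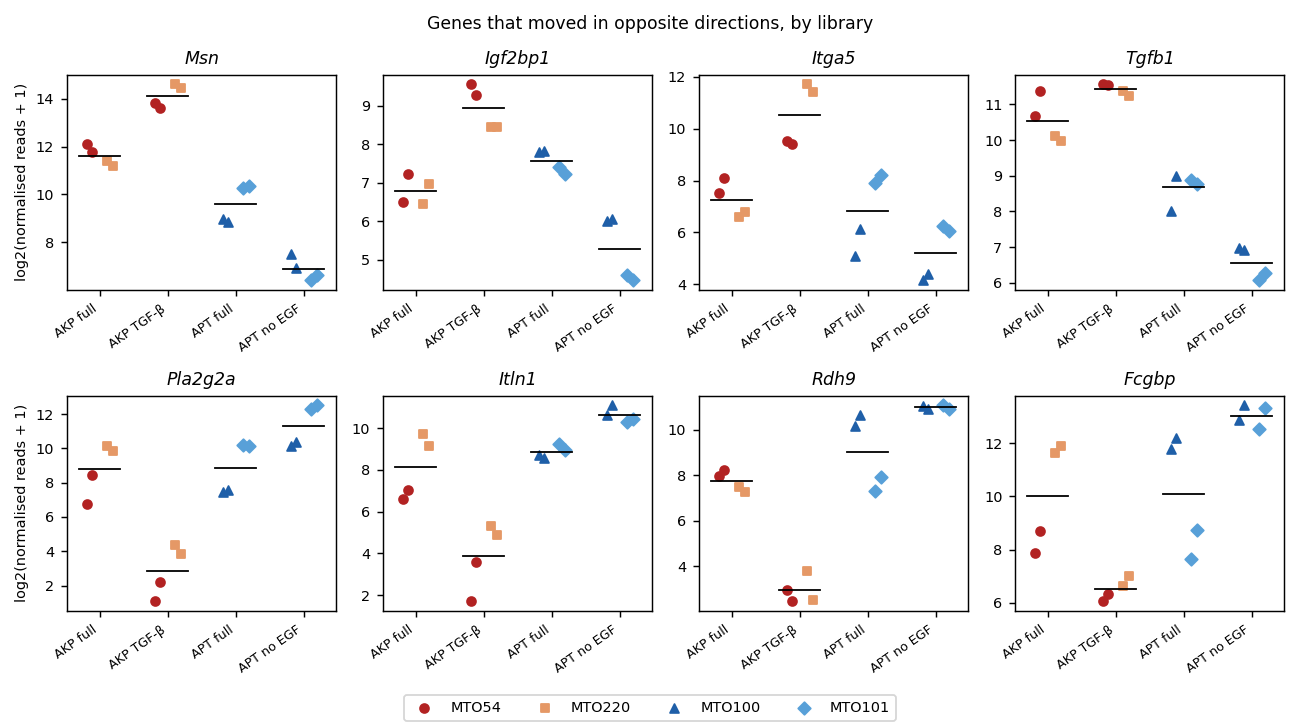
Level of 8 opposite genes in every library as log2(normalised reads + 1); columns are the 4 groups, each point is 1 library, symbols mark the line and bars the mean of 4 libraries. The upper 4 genes rise with TGF-β and fall without EGF, the lower 4 do the reverse, and for Fcgbp and Rdh9 the APT lines start apart and end close together.

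The 8 leading genes of the reverse class included Fcgbp, Pla2g2a and Itln1, whose products are secreted. Pla2g2a, a secreted phospholipase of Paneth cells (Entrez gene 18780, chromosome 4, 138831857 to 138835189), read 108.1 and 345.4 in MTO54 and 1114 and 929.0 in MTO220 in full medium. With TGF-β it read 1.14 and 3.61 in MTO54 and 19.4 and 13.3 in MTO220. In the APT lines it read 171.7 and 189.7 in MTO100 and 1167 and 1132 in MTO101 in full medium. Without EGF it read 1112 and 1344 in MTO100 and 4986 and 5799 in MTO101. The AKP groups did not overlap; the APT groups did, because MTO101 in full medium stood near MTO100 without EGF, but each line rose. The log2 changes were -5.93 ± 0.31 and 2.49 ± 0.31, and the difference of -8.41 ± 0.43 had an adjusted p of 3.82e-08.

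Itln1, the lectin intelectin 1 of goblet and Paneth cells, fell from 97.2 to 841.4 in AKP full medium to 2.27 to 38.8 with TGF-β and rose from 383.3 to 602.6 in APT full medium to 1243 to 2170 without EGF. Its groups did not overlap in either genotype, and its log2 changes were -4.26 ± 0.32 and 1.73 ± 0.32. Fcgbp, a protein of intestinal mucus, read 3161 and 3784 in MTO220 in full medium but 235.9 and 413.9 in MTO54, and 65.9 to 127.3 with TGF-β in both. In the APT lines it started at 3492 and 4633 in MTO100 and at 197.0 and 427.4 in MTO101, and all 4 libraries without EGF read 5911 to 10919. Its log2 changes were -3.52 ± 0.63 and 2.95 ± 0.63. Rdh9, a retinol dehydrogenase with close paralogs whose reads may be shared, changed by -4.78 ± 0.46 and 1.98 ± 0.46, and Rtn4rl1, a Nogo receptor family member, by -4.69 ± 0.30 and 1.65 ± 0.30. Extl1, a glycosyltransferase of the exostosin family, changed by -3.31 ± 0.36 and 2.56 ± 0.36, Sh3bgr by -2.17 ± 0.32 and 1.84 ± 0.32, and Map3k13, a kinase upstream of JNK, by -1.72 ± 0.29 and 1.70 ± 0.29.

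**Figure D3:**
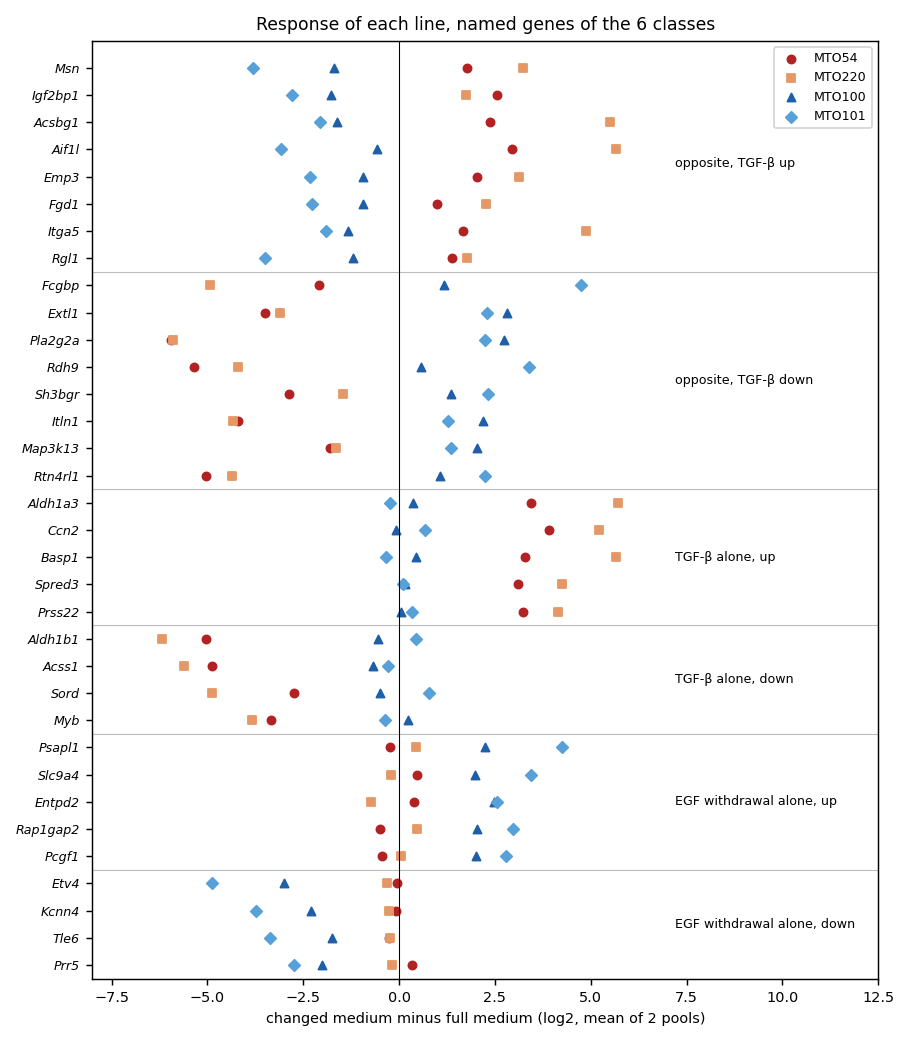
Log2 change from full to changed medium in each line (mean of 2 pools) for 34 named class genes, grouped by class; circles and squares are the AKP lines with TGF-β, triangles and diamonds the APT lines without EGF. In the opposite classes the 2 genotypes lie on either side of 0 for every gene, and in the other 4 classes 1 genotype stays within 1 log2 unit of 0.

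The list counts from here on are to be read beside the shares of all genes. With TGF-β 27.5% of all genes rose and 25.0% fell, and without EGF 27.0% rose and 22.4% fell. The difference was called for 22.2%. The TGF-β pathway itself was read from its ligands to its targets. All 14 tested ligands and ligand activators rose with TGF-β, while without EGF 5 rose and 2 fell. The median change was 2.58 against 0.60, beside 0.03 and 0.09 over all genes. A tested member read 15.9 to 240.1 with TGF-β and at most 1.06 in the other groups. It passed the filter of 10 in 4 libraries through TGF-β medium alone, so the filter partly sets the count of rises. The 2 list members that moved in opposite directions were ligands. Tgfb1 (Entrez gene 21803, chromosome 7, 25687002 to 25705077) read 1639, 2649, 1113 and 1000 in AKP full medium (MTO54, then MTO220) and 3019, 3003, 2674 and 2389 with TGF-β. In APT full medium it read 259.7 and 511.3 in MTO100 and 474.7 and 438.6 in MTO101, and without EGF 124.6 and 120.8, then 66.7 and 76.6. Neither the APT groups nor, apart from 1 full-medium library of MTO54 at 2649, the AKP groups overlapped. The log2 changes were 0.90 ± 0.25 and -2.11 ± 0.25. Tgfb3 changed by 2.58 ± 0.26 and -0.76 ± 0.26; its fall was called, but in MTO100 1 of 2 pairs did not fall.

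Among 11 tested receptors and SMADs 5 rose and 1 fell with TGF-β, and the difference was called for 4, beside 22.2% of all genes. Tgfbr3, the co-receptor betaglycan, was the opposite member, at -2.74 ± 0.50 and 2.94 ± 0.50: it read 374.5 to 808.1 in all libraries without EGF against 30.7 to 183.2 in APT full medium, and 1.90 to 6.32 with TGF-β against 4.60 to 134.0 in AKP full medium. Its TGF-β response differed by 3.16 between MTO220 and MTO54 (interaction in limma, adjusted p = 0.0037). MTO220 stood at a few reads already in full medium, so the mean fall rests mostly on MTO54. Acvr1, a type I receptor of the family, rose with TGF-β alone, by 2.32 ± 0.25 against 0.38 ± 0.25. Of 13 feedback inhibitors 11 rose with TGF-β and 2 without EGF, and the difference was called for 5, all higher under TGF-β. Pmepa1, which sequesters SMADs, read 140.9 to 234.2 in AKP full medium and 7240 to 15195 with TGF-β, a change of 6.05 ± 0.31, against 0.52 ± 0.31 without EGF. The co-repressor Skil changed by 2.65 ± 0.32 and 0.59 ± 0.32, and Tgif1, of the group up with TGF-β alone, by 1.32 ± 0.16 and 0.01 ± 0.16.

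Of 23 tested SMAD targets 18 rose with TGF-β, whereas without EGF 6 rose and 5 fell, and the difference was higher under TGF-β for 14. Serpine2, a protease inhibitor, rose in both, by 7.30 ± 0.35 and 1.06 ± 0.35. Ccn2, the secreted connective tissue growth factor (Entrez gene 14219, chromosome 10, 24595442 to 24598683), led the genes of TGF-β alone with Aldh1a3. It read 159.4 and 279.9 in MTO54 and 392.0 and 302.9 in MTO220 in full medium, and 3400 and 2951, then 13884 and 11858, with TGF-β. In the APT lines it read 70.0 and 132.8, then 124.4 and 127.3, in full medium and 113.3 and 73.8, then 207.4 and 193.7, without EGF. The AKP groups stood far apart and the APT groups overlapped. The log2 changes were 4.56 ± 0.29 and 0.30 ± 0.29, and the difference of 4.26 ± 0.41 had an adjusted p of 5.05e-06.

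All 13 tested genes of mesenchymal transition and matrix rose with TGF-β, and 4 rose and 2 fell without EGF. Testing required 10 or more in at least 4 libraries, and 6 of the 19 listed genes were not tested. A tested gene read 73.2 to 290.7 with TGF-β, at most 3.55 in AKP full medium and at most 1.06 in the APT lines. It passed through the TGF-β libraries alone, so its rise was fixed by the filter, which partly sets the count of rises. Fn1, fibronectin, changed by 6.80 ± 0.62 and, without a call, 1.27 ± 0.62, and Timp1, a metalloproteinase inhibitor, by 2.90 ± 0.50 and -1.52 ± 0.50. Without EGF the Timp1 response differed by -3.00 between MTO101 and MTO100 (interaction in limma, adjusted p = 0.00897). Its mean fall therefore does not describe both lines alike. Laminin chains, which build basement membranes, rose in both: 7 of 8 with TGF-β and 6 of 8 without EGF, with Lama3 at 7.25 ± 0.67 and 1.93 ± 0.67. Of 16 YAP and TEAD targets 11 rose with TGF-β and 3 without EGF, and the difference was higher for 11; Ccn1 changed by 3.18 ± 0.31 and 0.88 ± 0.31 and Amotl1 by 2.64 ± 0.39 and -0.35 ± 0.39. Ccn2 and Itga5 stand in more than 1 of these lists. Fibroblast markers read higher beside these genes, from 15.3 to 26.8 in AKP full medium to 142.7 to 206.2 with TGF-β as a sum of 10, with Lum at 0. They also read higher without EGF, from 22.3 to 160.8 in APT full medium to 172.8 to 523.9, with Pdgfra at a mean of 53.3 ± 52.2 and 269.2 ± 255.4 (SD, n = 4). Their part in the matrix and laminin responses was not tested. Fewer cells of a type and less RNA per cell cannot be told apart in bulk samples.

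The other leading genes up with TGF-β alone were Aldh1a3, Basp1, Prss22 and Spred3. Aldh1a3, an enzyme that makes retinoic acid, changed by 4.58 ± 0.33 and 0.06 ± 0.33. Basp1, a membrane-bound cortical protein, changed by 4.48 ± 0.40 and 0.05 ± 0.40, Prss22, a serine protease, by 3.68 ± 0.31 and 0.19 ± 0.31, and Spred3, a feedback inhibitor of RAS signalling, by 3.69 ± 0.35 and 0.14 ± 0.35.

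ERK targets were among the genes that fell without EGF alone. Etv4, an ETS-family factor induced by ERK (Entrez gene 18612, chromosome 11, 101769747 to 101785310), was the leading gene down without EGF alone. It read 1100 and 923.1 in MTO100 and 2051 and 1367 in MTO101 in full medium, and 120.9 and 130.3, then 58.2 and 54.4, without EGF. In the AKP lines it read 3696 and 3855 in MTO54 and 2762 and 2290 in MTO220 in full medium, and 3518 and 3712, then 1993 and 2058, with TGF-β. The APT groups stood far apart and the AKP groups overlapped. Its log2 changes were -3.93 ± 0.28 without EGF and -0.19 ± 0.28 with TGF-β, and the difference of 3.75 ± 0.39 had an adjusted p of 9.97e-06. Its relative Etv5 changed by -1.49 ± 0.24 and -0.13 ± 0.24.

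Of 11 tested ERK feedback inhibitors 5 fell and 1 rose without EGF, 5 rose with TGF-β, and the difference was higher under TGF-β for 8. Dusp5, Spred1 and Spred2 fell without EGF alone, with log2 changes of -1.37 ± 0.26, -1.28 ± 0.21 and -1.09 ± 0.21; Spred1 and Spred2 were picked after their values were seen. Dusp4, a nuclear ERK phosphatase, fell by 1.31 ± 0.32 and rose with TGF-β by 0.87 ± 0.32, the latter not in MTO54 (-0.04). Dusp7 rose with TGF-β by 0.89 ± 0.14 and changed by -0.20 ± 0.14 without EGF. Of 14 ERK-induced transcription factors 5 fell and 1 rose without EGF and 6 rose with TGF-β, among them Elk3 in the group of TGF-β alone, at 1.93 ± 0.23 and 0.31 ± 0.23. Of 14 other ERK targets 5 fell and 4 rose without EGF. Over all genes 22.4% fell and 27.0% rose without EGF, and 27.5% rose with TGF-β. The rises of the other ERK targets lie near that share without EGF, and nothing about that list is read from its counts. Scaling to library totals turned the median EGF-withdrawal change of the ERK transcription factors from -0.22 to 0.01 and of the other ERK targets from -0.07 to 0.07.

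Cyclin D1 was an opposite gene of this group. Ccnd1 (Entrez gene 12443, chromosome 7, 144929931 to 144939831), the G1 cyclin downstream of ERK, read 7231 to 11199 in AKP full medium and 16056 to 17082 with TGF-β. In the APT lines it read 6766 to 10345 in full medium and 2398 to 4945 without EGF. The 2 media did not overlap within either genotype, and the log2 changes were 0.92 ± 0.15 and -1.23 ± 0.15. Hbegf, an EGF-family ligand, rose with TGF-β alone, by 1.80 ± 0.30 against -0.21 ± 0.30, the 1 of 7 tested ligands of the family whose difference was called. Id1, a helix-loop-helix inhibitor known as a BMP target, changed by 1.20 ± 0.21 and -1.20 ± 0.21, while Id3 fell without EGF alone, at -2.05 ± 0.30 against 0.29 ± 0.30. Cxcl16, a chemokine, changed by 2.08 ± 0.21 and -0.90 ± 0.21, the opposite member of 17 tested NF-κB genes.

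Other leading genes of EGF withdrawal alone had varied roles. Kcnn4, a calcium-activated potassium channel, fell without EGF by 3.02 ± 0.25 (TGF-β -0.16 ± 0.25). Prr5, a component of mTOR complex 2, fell by 2.38 ± 0.23 (TGF-β 0.08 ± 0.23) and Tle6, a Groucho-family protein, by 2.56 ± 0.34 (TGF-β -0.25 ± 0.34). In the other direction Entpd2, an ectonucleotidase (Entrez gene 12496, chromosome 2, 25395874 to 25401323), read 501.4 and 582.5 in MTO100 and 1267 and 1685 in MTO101 in full medium, and 2628 and 3442, then 8008 and 9320, without EGF. In all 8 AKP libraries it read 60.1 to 213.4. It rose without EGF in each line and in all 4 pairs, by 2.52 ± 0.31, against -0.17 ± 0.31 with TGF-β. Psapl1, a relative of prosaposin, rose by 3.24 ± 0.33, the sodium/proton exchanger Slc9a4 by 2.71 ± 0.28, Rap1gap2, which switches off Rap1, by 2.50 ± 0.27, and Pcgf1, a Polycomb subunit, by 2.40 ± 0.26; their TGF-β changes lay between -0.19 and 0.12.

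**Figure D4:**
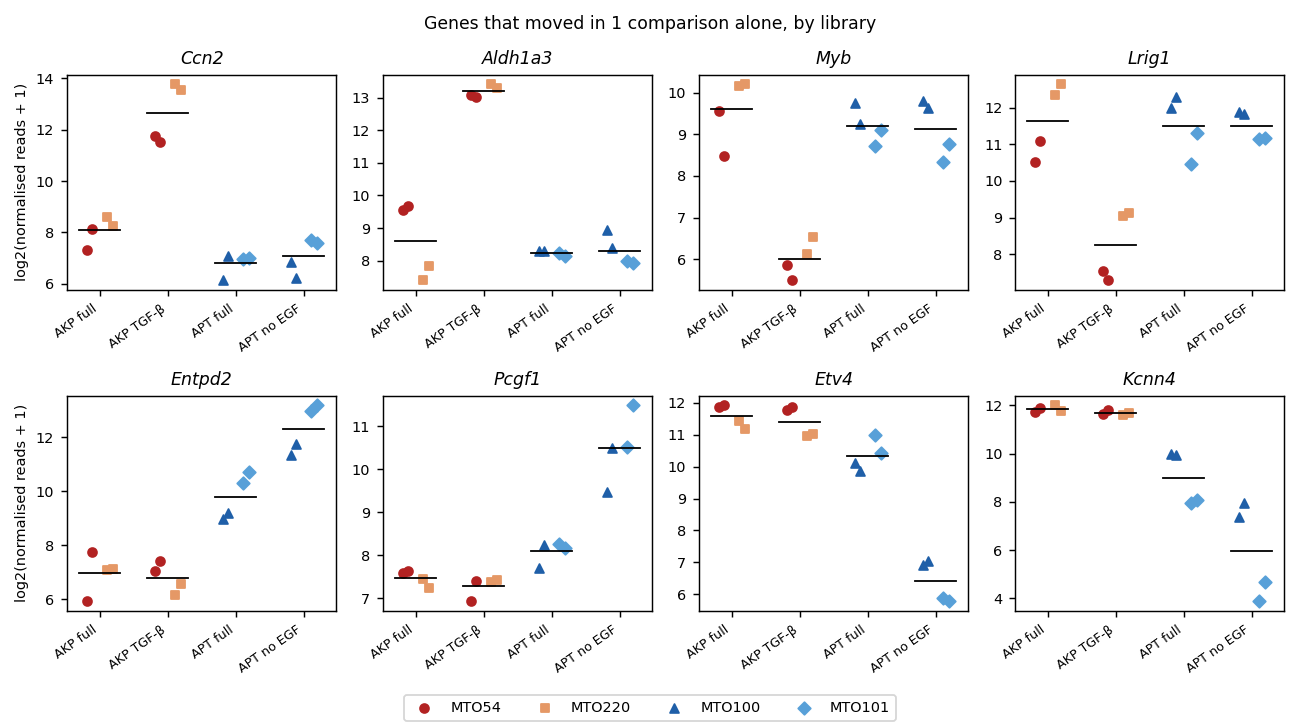
Level in every library of 8 genes that moved in 1 change alone, as log2(normalised reads + 1); columns, symbols and bars are the 4 groups, the lines and group means. Ccn2 and Aldh1a3 rise and Myb and Lrig1 fall in the AKP columns alone, and Entpd2 and Pcgf1 rise and Etv4 and Kcnn4 fall in the APT columns alone.

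The goblet, enteroendocrine and Paneth cell lists had the widest gaps between the 2 median responses among the lists with at least 5 tested members. All 15 tested goblet cell genes fell with TGF-β, with a median of -4.08, and without EGF 3 rose and 2 fell, with a median of 0.54; the difference was called for 14. Bcas1 changed by -2.09 ± 0.19 and 1.52 ± 0.19 and moved in its direction in all 4 lines. Muc2, the gel-forming mucin (picked after its values were seen), changed by -4.51 ± 0.90 and 3.54 ± 0.90, but in MTO54 it read 3.28 and 7.94 in full medium and 1.14 and 0.903 with TGF-β, so its fall rests on MTO220, which went from 1248 and 3268 to 6.46 and 18.1.

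Of 13 tested Paneth and deep crypt secretory genes 7 fell and 3 rose with TGF-β and 9 rose without EGF, and 6 were called in opposite directions, all down with TGF-β. Lyz1, lysozyme of Paneth cells, which may share reads with its near-identical neighbour Lyz2, rose without EGF from 331.1 and 444.2 to 2447 and 2920 in MTO100 and from 6.88 and 12.7 to 491.7 and 543.9 in MTO101. With TGF-β it went from 1410 and 1484 to 4.31 and 8.55 in MTO220, and it stood at 0 to 3.28 in all MTO54 libraries. Reg4, a secreted lectin, changed by -8.31 ± 0.46 with TGF-β, and its change of 1.13 ± 0.46 without EGF was not called. Of 12 tested enteroendocrine genes 8 rose without EGF, and 6 fell and 2 rose with TGF-β. A further 8 of the 20 listed genes did not pass the filter and were not tested. In AKP full medium Insm1 read 0 to 283.9 and Neurod1 0 to 23.1, while Sct read 32.8 to 97.7. Where a member stood at 0 in full medium, a fall with TGF-β could not be seen. Chga, chromogranin A, read 19.0 to 51.8 in APT full medium and 683.7 to 1540 without EGF, a change of 4.62 ± 0.41, and at most 21.8 in the AKP lines. Immune markers read higher beside the secretory genes without EGF, from 36.1 to 219.1 to 229.6 to 673.3 as a sum of 10, with Lyz2 holding up to 561.8 of it; endothelial markers went from 437.8 to 878.5 to 1160 to 1947 as a sum of 9, with Vwf holding up to 1212. In the AKP lines endothelial markers read lower beside the secretory genes, from 198.9 to 1437 in full medium to 49.4 to 103.0 with TGF-β, and immune markers went from 40.4 to 337.5 to 86.7 to 101.7. Their part in these counts was not tested.

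Of 12 tested absorptive genes 7 fell and 1 rose with TGF-β, and 2 rose and 1 fell without EGF. Slc5a1, the intestinal glucose transporter, changed by -3.51 ± 0.55 and 2.49 ± 0.55, from 7.64 and 4.96 in MTO54 full medium to 0 and 0 and from 362.6 and 249.5 in MTO100 full medium to 603.4 and 524.8. Cpt2, of mitochondrial fatty acid import, changed by -0.72 ± 0.14 and 0.48 ± 0.14; of 18 tested genes of fatty acid oxidation the difference was called for 8, lower under TGF-β for 7.

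Several genes of intestinal identity and of stem cells fell with TGF-β alone. Of 17 tested identity transcription factors 14 fell with TGF-β, whereas without EGF 3 rose and 6 fell. Cdx1, the intestinal homeobox factor, fell with TGF-β by 6.52 ± 0.33, from 704.3 and 794.3 to 2.85 and 4.31 in MTO220 and from 43.7 and 57.6 to 0 in both MTO54 libraries. In MTO100 it read 1212 to 1642 in full medium and 1108 to 1477 without EGF, while in MTO101 it read 6.02 to 12.0 in all 4 libraries. Gata6 changed by -2.25 ± 0.22 and -0.04 ± 0.22. Hnf4a fell in both, by 3.52 ± 0.26 and 1.41 ± 0.26. Myb, a factor of crypt progenitors (Entrez gene 17863, chromosome 10, 21124930 to 21160984), read 754.6 and 355.3 in MTO54 and 1135 and 1177 in MTO220 in full medium and 56.8 and 44.3, then 68.9 and 92.2, with TGF-β. In the APT lines it read 868.3 and 602.4, then 419.4 and 552.1, in full medium and 893.3 and 794.1, then 319.6 and 438.2, without EGF. The AKP groups did not overlap and the APT groups did, with log2 changes of -3.59 ± 0.24 and -0.07 ± 0.24.

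Of 19 tested stem cell genes 7 fell and 5 rose with TGF-β, and 6 rose and 2 fell without EGF. Over all genes 27.5% rose and 25.0% fell with TGF-β, and 27.0% rose and 22.4% fell without EGF, so the rises in this list lie near those shares. Lrig1, an inhibitor of EGF-family receptors that marks stem cells, changed by -3.41 ± 0.19 and -0.01 ± 0.19, Hopx by -3.52 ± 0.22 and 0.41 ± 0.22, and Lgr5, a marker of crypt base stem cells (picked after its values were seen), by -2.92 ± 0.34 and -0.07 ± 0.34. Ascl2, which acts with WNT in these cells, fell in both, by 5.15 ± 0.27 and 1.55 ± 0.27. In the fetal-like list of 18 tested genes 9 rose and 3 fell with TGF-β, and 7 rose and 5 fell without EGF; Gja1, connexin 43, changed by 4.10 ± 0.46 and -1.64 ± 0.46 and Anxa3 by 0.93 ± 0.23 and -0.97 ± 0.23. Among the leading genes down with TGF-β alone were 3 metabolic enzymes: the mitochondrial aldehyde dehydrogenase Aldh1b1 (-5.61 ± 0.27), the mitochondrial acetyl-CoA synthetase Acss1 (-5.23 ± 0.23) and sorbitol dehydrogenase Sord (-3.82 ± 0.37), with EGF-withdrawal changes between -0.48 and 0.14.

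Most growth genes fell in both changes. Both also share the 3 additional days of culture, which cannot be told apart from the media here. With TGF-β 22 of 25 S phase genes and all 25 G2/M genes fell, and without EGF all 25 of each fell. The difference was called for 6 S phase genes and 1 G2/M gene, each with the deeper fall without EGF; scaling to library totals left 2 and 0. Ccne1, cyclin E1, fell without EGF alone, by 1.38 ± 0.21 against -0.04 ± 0.21, and the helicase subunit Mcm6 changed by -1.83 ± 0.20 and -0.69 ± 0.20. The 1 G2/M gene, Ube2c (-2.16 ± 0.23 and -1.22 ± 0.23), had an adjusted p of 0.0465 for the difference in limma and lost the call in edgeR (0.0514) and without 1 of 10 single libraries (0.0503 to 0.109). Of 30 ribosomal protein genes 27 fell in each change, and the difference was called for 0 in limma, edgeR and DESeq2 alike and for 0 at an unadjusted p under 0.05. Of 22 genes of ribosome biogenesis 14 fell with TGF-β and 18 without EGF, and the difference was called for 0 in limma (3 at an unadjusted p under 0.05), 0 in edgeR and 2 in DESeq2. Of 24 genes of glycolysis and hypoxia 17 fell with TGF-β and 15 without EGF, with a called difference for Gapdh alone (1.11 ± 0.34), which was lost without 1 of 5 single libraries (0.0509 to 0.0570).

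Cdkn1a, the CDK inhibitor p21, rose with TGF-β by 3.28 ± 0.43 and changed by 0.11 ± 0.43 without EGF, while Rb1, the retinoblastoma protein, was an opposite gene at -0.63 ± 0.17 and 0.62 ± 0.17. Of 16 tested ATF4 stress genes 10 fell with TGF-β and 6 without EGF, and the difference was called for 7. Atf4 itself changed by -1.28 ± 0.18 and 0.04 ± 0.18 and Atf5 by -2.24 ± 0.24 and -0.17 ± 0.24; scaling to library totals turned the list's median EGF-withdrawal change from -0.07 to 0.16. Of 13 genes of serine and one-carbon synthesis 10 fell in each change, with Gldc, of the glycine cleavage system, as the opposite member at 3.42 ± 0.57 and -2.16 ± 0.57. Gldc read 8.48 to 18.9 in APT full medium and 0.922 to 3.78 without EGF, so its fall lies among a few reads. Of 18 interferon-stimulated genes 3 rose and 4 fell with TGF-β and 5 rose and 1 fell without EGF, beside 27.5%, 25.0%, 27.0% and 22.4% of all genes in the same order, so nothing about the list is read from its rises. Ifit1 changed by -1.18 ± 0.35 and 1.64 ± 0.35 and Rsad2 by -1.19 ± 0.35 and 1.45 ± 0.35, but both read at most 6.22 in every AKP library, so their TGF-β fall lies among a few reads.

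**Figure D5:**
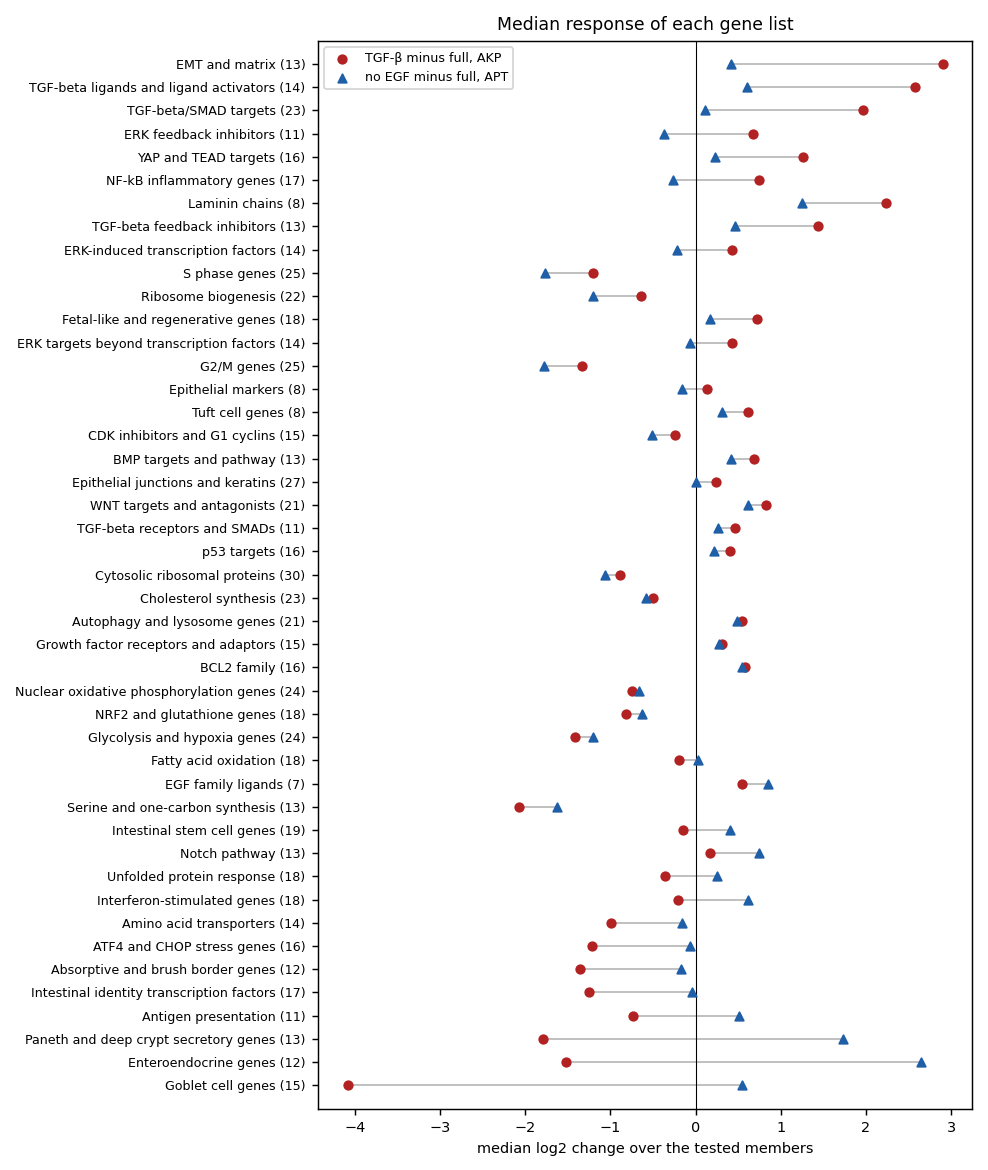
Median log2 change over the tested members of each gene list with at least 5 of them (number in brackets), with TGF-β in the AKP lines (circles) and without EGF in the APT lines (triangles), ordered by the gap between both. Matrix, ligand and SMAD target lists lie to the right with TGF-β, goblet, enteroendocrine and Paneth lists lie furthest left of their EGF-withdrawal medians, and the S phase, G2/M and ribosomal lists fall in both.

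With the 2 pools of each line averaged, so that 8 values enter the fit, the difference was called for 106 genes, and 9 and 13 genes were opposite, 8 and 13 of them among the 147 and 200. The calls above therefore rest on treating passages of a line as separate samples, and 2 lines a genotype limit what the comparison says about other lines.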

How the data were processed

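All 16 libraries of poly(A) RNA were used, from an unstranded kit, so overlapping genes on opposite strands share reads. The authors deposited 1 table of signal values for 27179 Entrez gene IDs. These are reads divided by a size factor: within 0.001, 100% of values in a column are whole multiples of 1 step. Per the submitters' processing notes, STAR 2.3.0e, DESeq2 1.22.1 and the build mm10 were used; the counting program is not given in the sources used here. Symbols and positions came from RefSeq (GRCm38.p6) for 25275 IDs (93.0%).

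Genes at 10 or more in at least 4 of 16 libraries (15087) were fitted as log2(value + 1) with limma 3.58.1 (limma-trend, robust empirical Bayes, two-sided) in R 4.3.3, with the 4 lines, TGF-β medium and no EGF as terms and the contrast of both media terms as the difference. Fold changes on this scale understate the change of low genes. The plan had named edgeR for whole counts; since the values are scaled, edgeR 4.0.16 and DESeq2 1.42.0 were run on the recovered reads as alternatives. The opposite classes were checked on simulated counts with 200 genes changed in opposite directions and no differences between lines. The classes of 1 change alone were not checked in this way. Values given as a ± b are estimates with limma's standard errors. Reads are not marked by molecule, so low values carry at least counting error.

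The classes, 48 gene lists and members were chosen with earlier results of these data known. Named genes are the 8 of each opposite class with the largest smaller change, the 5 of each other class with the largest change (mean log2 of at least 6) and up to 4 of each list with the smallest p of the difference; Muc2, Lgr5, Spred1 and Spred2 lie outside this rule and were added after their values were seen. Some genes picked this way were left out. Alternatives covered the test, scaling, pseudocount, filter, pool block, averaged pools, and leaving out lines or libraries.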

Additional observations from a re-analysis of the deposited data

Results flagged for a closer look

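Among the 86 genes named above, the size of a response differed between the 2 lines of a genotype in 36 tests of 31 genes (interaction of line and medium in limma, adjusted p under 0.05), 23 of the tests for TGF-β and 13 for EGF withdrawal. The values below are differences of log2 responses, MTO220 minus MTO54 for TGF-β and MTO101 minus MTO100 for EGF withdrawal.

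With TGF-β, MTO220 moved further upwards than MTO54 for Msn (1.48, adjusted p = 0.00576 in limma), Acsbg1 (3.12), Aif1l (2.73), Itga5 (3.21), Aldh1a3 (2.27), Basp1 (2.39), Fn1 (4.21), Lama3 (4.41), Hbegf (1.81), Dusp4 (1.81), Ccn1 (1.88) and Amotl1 (1.71). The response was lower in MTO220 for Fcgbp (-2.85), Sord (-2.14), Muc2 (-5.79), Lyz1 (-6.12, adjusted p = 2.29e-05 in limma), Reg4 (-2.77), Cdx1 (-1.70), Ccne1 (-1.09) and Ube2c (-1.14). For Ccne1 the lines moved in opposite directions, down in MTO220 and up in MTO54. Tgfbr3 (3.16) and Hnf4a (1.56) fell less in MTO220, and Gldc (-3.27) rose less. In full medium MTO54 read at most 7.94 for Muc2 and 3.28 for Lyz1, and MTO220 at most 7.11 for Tgfbr3 (normalised reads). With TGF-β Cdx1 read 0 in MTO54, so its fall in that line could go no further.

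Without EGF, the response was lower in MTO101 than in MTO100 for Msn (-2.09, adjusted p = 0.00146 in limma), Aif1l (-2.51), Rgl1 (-2.30), Etv4 (-1.88), Kcnn4 (-1.43), Timp1 (-3.00) and Amotl1 (-1.93). MTO101 moved further upwards for Fcgbp (3.57), Rdh9 (2.80), Psapl1 (2.02), Slc9a4 (1.48), Lyz1 (2.84) and Slc5a1 (3.18). For Msn, Aif1l, Fcgbp and Lyz1 the same line of each genotype, MTO220 and MTO101, gave the larger response in both media changes. Amotl1 also passed in both, and without EGF its change was 0.61 in MTO100 and -1.32 in MTO101. What sets these line differences was not tested.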

How the results depend on the processing

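With pools averaged the calls were 3859 for TGF-β, 2927 for EGF withdrawal and 106 for the difference. The opposite classes then held 9 and 13 genes, and the alone classes 4 (TGF-β up), 7 (TGF-β down), 0 (EGF withdrawal up) and 1 (EGF withdrawal down). There, 60 of the 86 named genes lost the call of the difference. None of the 86 reversed under this or any other alternative, but they were chosen by these same values, so this is no separate support. Without line MTO101 the counts were 3880 (EGF withdrawal), 1666 (difference), 51 and 83 (opposite), 153, 121, 69 and 50 (alone, same order), and Tle6, Dusp5, Mcm6, Ube2c, Gapdh, Spred1 and Spred2 lost the call. Without MTO220 they were 3588 (TGF-β), 2145 (difference), 84 (opposite, TGF-β up), 149 (TGF-β up alone) and 117 (EGF withdrawal up alone), and Skil, Hbegf, Dusp4, Dusp5, Etv5 and Spred2 lost it. Without MTO100 they were 232 (opposite, TGF-β up), 136 and 127 (TGF-β up and down alone) and 187 (EGF withdrawal down alone). Of the 232, 108 were among the 147, and Etv5 and Gapdh lost the call. Without MTO54 the counts were 433 (TGF-β up alone) and 89 and 43 (EGF withdrawal up and down alone). There, Mcm6, Ube2c, Gapdh and Spred1 lost the call. Library-total scaling left 89 genes opposite with TGF-β up, 79 of them shared with the 147, and 59 down with EGF withdrawal alone. It kept 149 of the 200 opposite genes with TGF-β down. Of the 257 and 216 genes up and down with TGF-β alone it kept 138 and 147. Of the 179 and 100 up and down with EGF withdrawal alone it kept 154 and 56. A pseudocount of 5 gave 358 genes up with EGF withdrawal alone. Without the 2 EGF-withdrawal libraries of pool 2 there were 5129 calls for EGF withdrawal and 2258 for the difference, 103 and 145 opposite genes and 167, 158, 123 and 77 genes alone, and Etv5, Mcm6, Ube2c, Gapdh, Spred1 and Spred2 lost the call. Requiring the other response to stay within 1.5-fold left 57, 67, 34 and 28 genes alone. The cause of these changes was not tested, beyond the smaller number of samples or the stricter limit. Leaving out 1 library gave 6612 to 8288 calls for TGF-β, 5965 to 7737 for EGF withdrawal, 2562 to 3452 for the difference, 113 to 170 and 161 to 221 opposite genes, and 198 to 333, 179 to 249, 127 to 204 and 70 to 116 genes alone.

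Libraries of a line with the same pool number share its passage, and the class rule matched them in this way. Their deviations correlated at 0.0385 in MTO54 and at 0.127 to 0.174 in the other lines. The fit had no pool term; with the pool as a replicate block the counts were 8163, 7651 and 3542 calls, 158 and 207 opposite genes and 257, 222, 187 and 105 genes alone. edgeR with TMM gave 147 and 200 opposite genes, of which 139 and 189 were in the same classes in the main fit. DESeq2 gave 162 and 209, of which 145 and 188 were. At 17056053 reads or more per library, depth limits genes at a few reads, where a fall cannot be read further.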
